A study of Macaca mulatta with 9 samples.

Results

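The comparison described here sets the prostates of rhesus monkey offspring whose dams received an initial dose of 30 ng/kg TCDD against those of offspring whose dams received vehicle. It takes 6 of the 9 arrays of the series, 3 per group, chosen by their dose labels. TCDD is 2,3,7,8-tetrachlorodibenzo-p-dioxin, a persistent dioxin. The dams received the initial dose under the skin on gestation day 20 and maintenance doses of 5% of it at intervals of 30 days, the last of them by day 90 after birth, so the offspring were exposed only before birth and through milk. Necropsy was 7 years after exposure, when the offspring were adult. The other 3 arrays, from offspring of dams given an initial 300 ng/kg on the same schedule, entered only the estimate of the spread and the comparisons of dose stated below. Each array was hybridised with labelled RNA from the prostate of 1 animal, amplified from 0.5 ug of total RNA. The comparison asks whether the lower dose left a lasting difference in prostate gene expression.

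TCDD binds the aryl hydrocarbon receptor, which pairs with ARNT in the nucleus and switches on genes such as those of the CYP1 family. The receptor also meets other pathways, including NF-kappaB through RELB. The prostate is a gland of secretory luminal cells resting on basal cells, set in a stroma of smooth muscle, fibroblasts, vessels and nerves, and its secretory genes depend on androgen. In such whole tissue, fewer cells of a type and less RNA per cell cannot be told apart.

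The arrays measured 20217 probes, of which the 15160 that were well above background on every array of some dose group were tested. Of the spots, 63.9% to 79.0% were well above background at 30 ng/kg and 66.7% to 79.2% in vehicle. The 75th percentile of the signal ran from 343 to 1356 intensity units at 30 ng/kg and from 514 to 1193 in vehicle, and the difference gave p = 0.7 in a two-sided exact permutation test, where 0.1 is the smallest p that 3 against 3 allows. Values below are log2 signals relative to that percentile, on which 0 is the percentile itself and -6.10 is the floor. The secretory genes KLK3, MSMB and TGM4 were well above background on all 6 arrays, and all are known products of the prostate. Replicate 2 at 30 ng/kg correlated more closely with vehicle replicate 2 (r = 0.984 across tested probes, which are not independent replicates) than with its own group (r = 0.956 and 0.952). The slides held the groups unevenly. Vehicle replicates 1 and 2 were on 1 slide, vehicle replicate 3 and replicates 1 and 2 of 30 ng/kg shared another, and replicate 3 of 30 ng/kg shared the third with the 300 ng/kg arrays.

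No probe passed an adjusted p of 0.05 between 30 ng/kg and vehicle (0 of 15160, 0.0%), and the smallest adjusted p was 0.946 (limma with Benjamini-Hochberg adjustment). Before adjustment, 766 probes had a p under 0.05, which is 5.05% of those tested and close to the threshold itself. Of these, 489 (3.23%) were higher at 30 ng/kg and 277 (1.83%) lower. The 3 arrays of 1 group all lay beyond the 3 of the other for 1422 probes, 9.38% of those tested (4.93% higher and 4.45% lower at 30 ng/kg). The count of 766 depended on single arrays. Leaving out replicates 1, 2 and 3 of 30 ng/kg in turn gave 438, 1937 and 410. Leaving out vehicle replicates 1, 2 and 3 in turn gave 537, 503 and 1138. Without replicate 2 of 30 ng/kg 1 probe passed the adjusted threshold. It belongs to ARMCX2, singled out only after its values were seen, with a log2 difference of -2.91 in that fit (adjusted p = 0.0215) and -1.95 on all arrays. The slide mattered as well. With slide as a fixed block, which rests on vehicle replicate 3 against 2 arrays of 30 ng/kg, 6 probes passed, none with a gene symbol, and the 1552 probes at an unadjusted p under 0.05 split into 278 higher and 1274 lower. With normexp background correction the split was 314 higher and 83 lower, and on the shared slide alone it was 74 higher and 769 lower.

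What these arrays can resolve is given by the width of the intervals. The median 95% interval of a probe's difference reached 0.72 on the log2 scale to either side of its estimate. For 7324 probes, 48.3% of those tested, the whole interval lay within a 2-fold difference in either direction. For the rest, the interval reached past 2-fold on at least 1 side. The estimate itself reached 2-fold for 516 probes (3.40%), 380 higher and 136 lower. At 300 ng/kg against the same vehicle arrays 1874 probes (12.4%) did so.

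**Figure D1:**
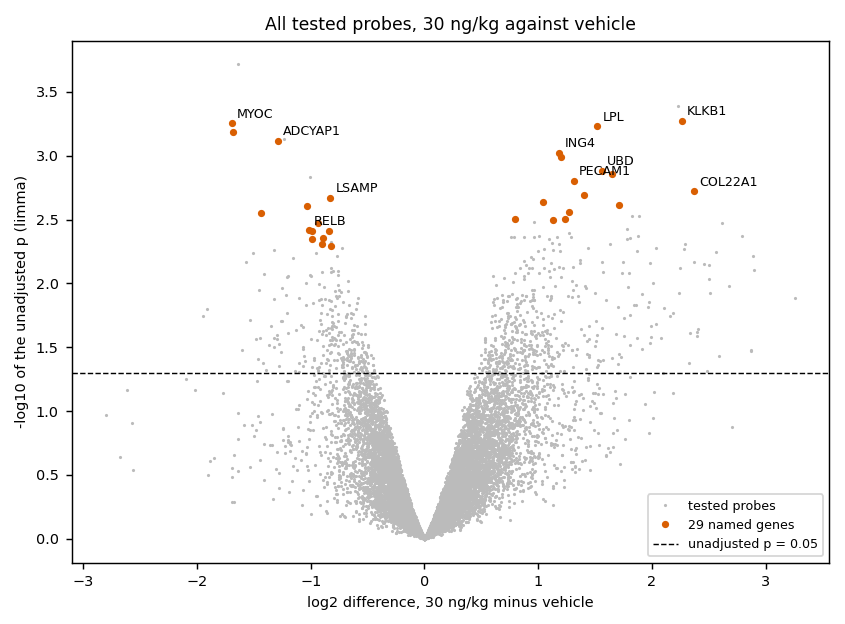
Log2 difference, 30 ng/kg minus vehicle (x axis), against -log10 of the unadjusted limma p (y axis) for the 15160 tested probes, with the 29 genes described next in orange and a dashed line at the unadjusted threshold of 0.05. The cloud above the line holds more points on the right (489) than on the left (277), and no point passed after adjustment.

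The 15 genes above vehicle with the smallest unadjusted p, and 14 of the 15 below, are described next by what they encode. They were chosen by their p in this comparison, and their symbols come from a table of probes that the authors picked on the same arrays, so their separation is a description and not evidence of an effect. Each had an adjusted p of 0.946. In all 29 the groups did not overlap.

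**Figure D2:**
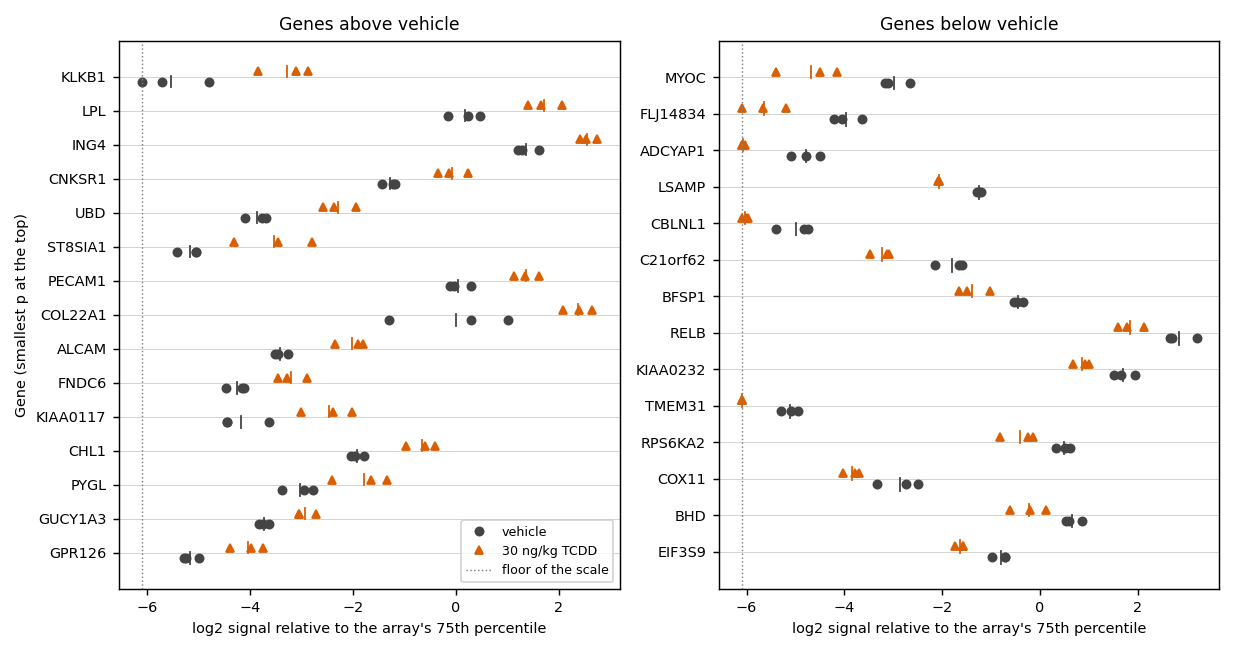
Log2 signal relative to the array's 75th percentile (x axis) on each vehicle array (circles) and each 30 ng/kg array (triangles), with group means as short bars (n = 3 per group), for 15 genes above vehicle (left) and 14 below (right), ordered by unadjusted p. No circle overlaps the triangles of its gene, and several genes on the right reach the floor (dotted line) at 30 ng/kg.

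Among genes of the matrix and vessels, COL22A1, a collagen of tissue junctions, had the largest log2 difference of the 29. It stood at -1.30, 0.30 and 1.01 on the vehicle arrays and at 2.65, 2.39 and 2.09 on the 30 ng/kg arrays, a difference of 2.37 ± 0.55 (SE). The vehicle arrays spread more widely than the 30 ng/kg arrays, and the difference was 1.503 on the shared slide. PECAM1, an adhesion molecule of endothelial cells, stood at -0.13, 0.29 and -0.03 in vehicle and at 1.33, 1.13 and 1.60 at 30 ng/kg. Its difference was 1.31 ± 0.29, and the gap between the groups was wider than the spread within either. It was the only 1 of 15 listed endothelial genes with a symbol among the tested probes, and the part of vessel content in its level was not tested. GUCY1A3, a subunit of the nitric oxide receptor guanylate cyclase, differed by 0.80 ± 0.20.

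KLKB1 encodes plasma prekallikrein, the precursor of the protease that releases bradykinin. It stood at -4.80, -6.10 and -5.72 in vehicle and at -3.12, -2.87 and -3.86 at 30 ng/kg. The probe was well above background on 1 vehicle array and on all 3 arrays of 30 ng/kg. The difference was 2.26 ± 0.43, and 2 of the 3 vehicle values are signals not well above background. A second probe of the gene was well above background on no vehicle array and on 2 arrays of 30 ng/kg, so no fold is given for it.

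LPL, the lipase that frees fatty acids from lipoproteins, had 1 of the smaller p values of the comparison. Its levels were 0.24, -0.15 and 0.46 in vehicle and 2.07, 1.39 and 1.65 at 30 ng/kg, a difference of 1.52 ± 0.29. PYGL, the liver form of glycogen phosphorylase, stood at -3.38, -2.95 and -2.78 against -2.41, -1.65 and -1.34, a difference of 1.24 ± 0.31. Both enzymes release stored or circulating fuel, and both also stood above vehicle at 300 ng/kg, as given below.

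UBD, a ubiquitin-like protein induced by interferon and TNF, stood at -4.11, -3.78 and -3.70 in vehicle and at -2.38, -1.95 and -2.58 at 30 ng/kg, a difference of 1.56 ± 0.34. ALCAM and CHL1 are adhesion molecules of the immunoglobulin superfamily. ALCAM lay between -3.53 and -3.26 in vehicle and between -2.34 and -1.80 at 30 ng/kg, a difference of 1.40 ± 0.33. For CHL1 the ranges were -2.04 to -1.79 and -0.98 to -0.40, and the difference was 1.27 ± 0.31. CNKSR1, a scaffold that links to RAS signalling, differed by 1.20 ± 0.25, and ING4, a chromatin reader of the inhibitor of growth family, by 1.18 ± 0.25. ING4 stood at 1.20, 1.29 and 1.61 in vehicle and at 2.51, 2.40 and 2.74 at 30 ng/kg, so no 30 ng/kg array came near the vehicle range.

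ST8SIA1, the sialyltransferase that makes the ganglioside GD3, stood at -5.06, -5.41 and -5.05 in vehicle, where 1 array was well above background, and at -3.47, -4.32 and -2.80 at 30 ng/kg, where all 3 were. Its difference was 1.65 ± 0.36. The adhesion receptor GPR126 differed by 1.13 ± 0.28 at levels near the floor, KIAA0117 by 1.71 ± 0.41 and FNDC6, described in the table as a protein with a fibronectin type III domain, by 1.04 ± 0.25.

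On the lower side, MYOC, the secreted glycoprotein myocilin, had the largest difference. It stood at -3.18, -2.67 and -3.11 in vehicle and at -5.39, -4.50 and -4.15 at 30 ng/kg, a difference of -1.70 ± 0.33, with 2 of the 3 arrays of 30 ng/kg well above background. ADCYAP1, the precursor of the neuropeptide PACAP, stood at -4.78, -5.09 and -4.50 in vehicle. At 30 ng/kg all 3 arrays lay at or next to the floor and none was well above background, so the level was at least 1.28-fold lower. The ADCYAP1 probe passed the filter for testing only through the vehicle arrays, where it was high, so its lower side is tied to that filter. The bound for ADCYAP1 sets the vehicle mean against the lowest signal still well above background on each 30 ng/kg array, or the probe's own signal where that was higher. CBLNL1, a cerebellin-like gene, and TMEM31 were likewise not well above background on any 30 ng/kg array. Each was so on only 2 vehicle arrays, and no fold is given. LSAMP, a neural adhesion protein, had the tightest groups, at -1.24, -1.29 and -1.20 against -2.09, -2.07 and -2.06, a difference of -0.83 ± 0.19.

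RELB, the NF-kappaB subunit that can bind the aryl hydrocarbon receptor, stood at 2.69, 3.21 and 2.65 in vehicle and at 2.12, 1.79 and 1.59 at 30 ng/kg. The groups were apart and the difference was -1.02 ± 0.26. RPS6KA2, a ribosomal S6 kinase, differed by -0.89 ± 0.24, and BHD, which encodes folliculin, by -0.90 ± 0.24. EIF3S9, a subunit of the translation initiation factor eIF3, stood at -0.72, -0.98 and -0.71 against -1.57, -1.58 and -1.73, a difference of -0.83 ± 0.22. COX11, an assembly factor of cytochrome c oxidase, differed by -0.99 ± 0.26. The lens filament protein BFSP1 differed by -0.93 ± 0.24. Less is known of C21orf62 (-1.44 ± 0.35), FLJ14834 (-1.68 ± 0.33) and KIAA0232 (-0.84 ± 0.22, with -0.64 ± 0.22 from its other probe).

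The lower side of dim genes depended on the background correction. With normexp in place of the scanner's processed signal the median difference of all tested probes moved from 0.02 to 0.29, and ADCYAP1, CBLNL1, TMEM31, FLJ14834, COX11 and IRX4 then lay above vehicle, at 0.55, 0.58, 0.63, 0.35, 0.13 and 0.57. Relative to that median they lay at 0.25, 0.29, 0.33, 0.06, -0.17 and 0.28. MYOC was at -0.03 under that correction and at -0.32 relative to the median. RELB kept its side at -1.10.

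Genes of 30 lists that fit the tissue and the exposure were then read as groups. Of 517 listed genes, 80 had a symbol and a tested probe, in 25 of the lists. At 30 ng/kg 48 stood above vehicle (60.0%) and 32 below. Of all tested probes 52.4% stood above, and of the 1100 tested genes with a symbol 62.6%. Counts above vehicle in the single lists below are to be read beside these shares. The median difference of the 80 genes was 0.11, beside 0.02 for all tested probes and 0.18 for the 1100 genes with a symbol. None of the 80 passed the adjusted threshold. At an unadjusted p under 0.05 there were 24 (30.0%), 15 above and 9 below, and the groups were apart for 23 (28.7%). The shares of 30.0% and 28.7% lie above the 5.05% and 9.38% of all probes and near the 26.4% and 27.3% of the 1130 tested probes with a symbol. Symbols exist here only for probes the authors selected on these arrays, so the excess is not independent of the data. No member was tested in the lists for T and NK cells, myeloid cells, proliferation, seminal vesicle and urothelium, or skeletal muscle and erythrocytes, and their levels were not analysed here.

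**Figure D3:**
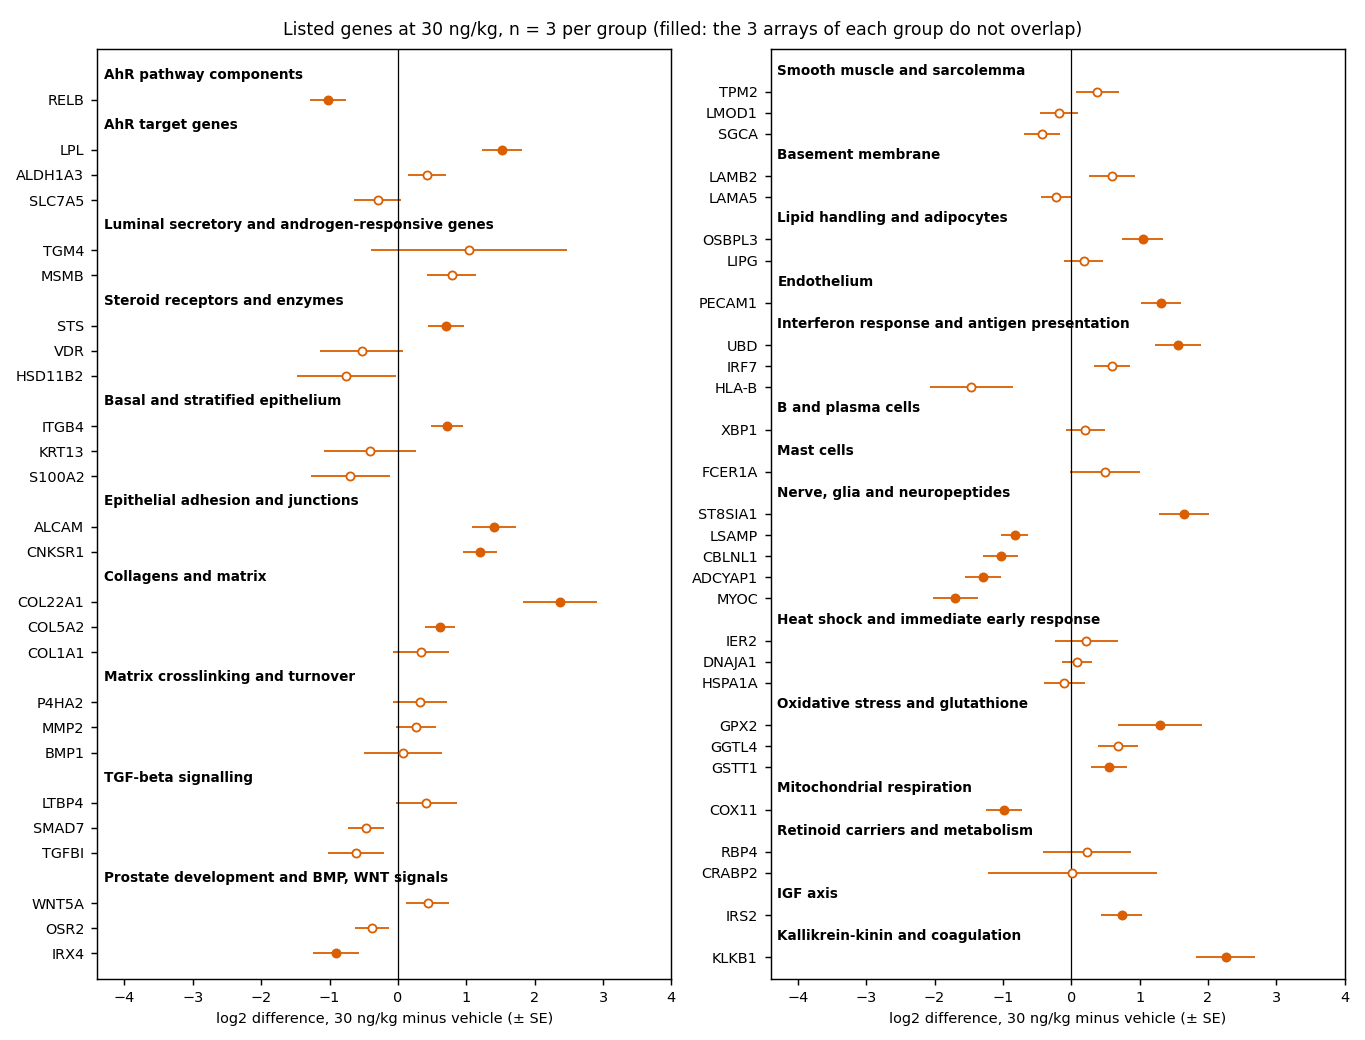
Log2 difference, 30 ng/kg minus vehicle, with its SE (x axis) for up to 3 named genes of each list, plus CBLNL1 and LSAMP and without the saturated KLK3 probe, n = 3 arrays per group. Filled points mark genes whose groups did not overlap, and the points of IRX4, KRT13, LIPG, ADCYAP1, CBLNL1, STS and OSBPL3 have 1 group with no array well above background. Filled points lie on both sides of 0, from COL22A1 at 2.37 to MYOC at -1.70.

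Genes of the dioxin response came first. RELB was the 1 of 14 listed receptor pathway genes that was tested. Of 19 listed target genes 3 were tested, and LPL (above) was followed by ALDH1A3, a retinaldehyde dehydrogenase, at 0.43 ± 0.28 and by the amino acid transporter SLC7A5 at -0.29 ± 0.34. ALDH1A3 stood at 2.60, 2.29 and 3.32 in vehicle and at 3.33, 3.17 and 3.00 at 30 ng/kg, so the groups overlapped, and within the shared slide it was at -0.07. The CYP1 genes had no symbol among the tested probes and were not analysed here.

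The secretory and androgen-responsive genes are the output of luminal cells. Of 22 listed, 3 were tested, all 3 stood above vehicle and none had groups apart. MSMB, a major protein of seminal plasma, stood at 5.22, 6.64 and 6.02 in vehicle and at 6.90, 6.89 and 6.44 at 30 ng/kg, a difference of 0.79 ± 0.36 (95% interval -0.03 to 1.60). KLK3, prostate-specific antigen, had a saturated brightest probe on 6 of the 9 arrays, so its size is taken from the other probe. That probe stood at 3.92, 5.79 and 3.30 against 5.43, 4.61 and 5.89, a difference of 0.97 ± 0.59 (95% interval -0.35 to 2.30). TGM4, the prostate transglutaminase, stood at -3.89, -4.55 and -2.54 against -3.17, -1.08 and -3.61, a difference of 1.04 ± 1.44. Of these genes, TGM4 was highest in replicate 2 of 30 ng/kg, the array on which the unsaturated KLK3 probe was lowest in its group.

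Of the steroid genes 4 of 22 were tested, 2 above and 2 below. STS, which frees steroids from their sulphates, was well above background on no vehicle array and on 1 array of 30 ng/kg, so no fold is given. HSD11B2, which inactivates cortisol, differed by -0.75 ± 0.73 and lay at 0.39 within the shared slide. VDR, the vitamin D receptor, differed by -0.53 ± 0.61, with 3 vehicle arrays and only 1 array of 30 ng/kg well above background, and lay at 0.55 with normexp. For both, a 2-fold difference in the lower direction was within the interval.

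Among genes of basal and stratified epithelium, ITGB4, the hemidesmosome integrin, stood at 2.79, 2.23 and 2.17 in vehicle and at 3.04, 2.94 and 3.37 at 30 ng/kg. The groups were apart and the difference was 0.72 ± 0.24. S100A2 (-0.69 ± 0.57) was near the floor, with 2 vehicle arrays and 1 array of 30 ng/kg well above background. KRT13 was at the floor on all 3 arrays of 30 ng/kg and well above background on 1 vehicle array, so no size is given. With normexp both lay above vehicle, at 0.66 and 0.70. The basement membrane laminins LAMB2 and LAMA5 differed by 0.59 ± 0.34 and -0.22 ± 0.22, and both had overlapping groups.

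Collagen and matrix genes split, with 4 of 6 tested members above vehicle and a median of 0.22. COL5A2, a fibril-forming collagen chain, stood at 0.39, 0.40 and 0.70 in vehicle and at 0.97, 0.94 and 1.46 at 30 ng/kg, a difference of 0.62 ± 0.22 with the groups apart, and of 0.25 within the shared slide. COL1A1, the main chain of type I collagen, overlapped, with 0.56, -0.68 and 0.16 against 0.61, 0.54 and -0.07. Its difference of 0.34 ± 0.41 had a 95% interval of -0.58 to 1.27, and was -0.0051 without vehicle replicate 2. Of the enzymes that build or cut matrix, P4HA2 was at 0.32 ± 0.40, MMP2 at 0.27 ± 0.29 and BMP1 at 0.08 ± 0.57, and the second BMP1 probe gave 0.65 ± 0.71. P4HA2 was at 1.04 within the shared slide and ran from 0.07 to 0.77 with 1 array left out, the lowest without replicate 1 and the highest without replicate 3 of 30 ng/kg. BMP1 was at -0.80 within the shared slide, and its 95% interval was -1.22 to 1.37.

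In TGF-beta signalling 4 of 5 tested genes stood below vehicle, and none had an unadjusted p under 0.05. The inhibitor SMAD7 differed by -0.47 ± 0.26 and the induced matrix protein TGFBI by -0.61 ± 0.41. SMAD7 was at -0.89 within the shared slide, and TGFBI was at -0.23 without replicate 1 and -1.04 without replicate 2 of 30 ng/kg. LTBP4, which holds latent TGF-beta in the matrix, was the member above vehicle, at 0.42 ± 0.44.

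Developmental genes were divided, with 7 of 13 above and 6 below. IRX4, a homeobox gene, stood at -5.91, -4.68 and -5.00 in vehicle, while all 3 arrays of 30 ng/kg were at the floor of -6.10. No 30 ng/kg array and 2 vehicle arrays were well above background, so the fitted difference of -0.90 ± 0.34 is no measured size and no fold is given. OSR2, a zinc finger factor, differed by -0.37 ± 0.25, and WNT5A, a secreted signal of prostate development, by 0.43 ± 0.32, or -0.05 within the shared slide. In smooth muscle TPM2, SGCA and LMOD1 differed by 0.38 ± 0.32, -0.43 ± 0.27 and -0.18 ± 0.28. All 3 overlapped between the groups.

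Of 20 lipid genes 3 were tested. All 3 stood above vehicle, but only LPL, given above, was well above background on any vehicle array. The probes of the other 2 passed the filter for testing only through the 300 ng/kg arrays. OSBPL3, an oxysterol-binding protein, was well above background on no vehicle array and on 1 array of 30 ng/kg, so no fold is given. LIPG, endothelial lipase, was at the floor in every vehicle array and on 2 of 3 arrays of 30 ng/kg, and no fold is given. On this scale LIPG could not stand below vehicle, so its side is no result.

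Interferon and antigen presentation genes went both ways, 2 above and 2 below. UBD is given above. IRF7, a regulator of interferon genes, was at 0.59 ± 0.27. HLA-B, which presents antigen to cytotoxic T cells, stood at 0.45, -0.66 and -0.02 in vehicle and at -3.05, -1.10 and -0.46 at 30 ng/kg, a difference of -1.46 ± 0.61. Replicate 1 of 30 ng/kg was far below the others and replicate 3 lay within the vehicle range. HLA-B belongs to a family of near-identical genes, and which macaque members its probe reads is uncertain. Markers of other immune cells were few. XBP1, a plasma cell factor that secretory epithelium also uses, was at 0.21 ± 0.28. FCER1A, a mast cell receptor, was near the floor, with 1 vehicle array and 1 array of 30 ng/kg well above background. It was at 0.49 ± 0.51, and at -0.21 within the shared slide.

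Nerve and neuropeptide genes had 7 of 19 members tested, 2 above and 5 below. Beside the genes already given, these were NCAM1, a neural adhesion molecule, at 1.04 ± 0.38 and 0.84 ± 0.28 from its 2 probes, and NTS, the precursor of neurotensin, at -1.48 ± 0.56. Both were named after their values were seen, to complete the list. All 7 had an unadjusted p under 0.05, beside 5.05% of all tested probes and 26.4% of those with a symbol, but this list was written with earlier results in view, and 5 of the 7 are among the 29 genes chosen by p. The median was -1.04. The lower side of ADCYAP1 and CBLNL1 did not hold with normexp, and ADCYAP1 was tested only because it was well above background on all vehicle arrays.

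The 5 tested genes of oxidative stress and glutathione all stood above vehicle, with a median of 0.61, where 62.6% of all tested genes with a symbol stood above. GPX2, an epithelial glutathione peroxidase, stood at -2.84, -3.38 and -3.43 in vehicle and at -2.22, -2.38 and -1.17 at 30 ng/kg, a difference of 1.30 ± 0.62 with the groups apart. GSTT1, a glutathione transferase, differed by 0.55 ± 0.26, also apart, though by 0.09 within the shared slide. GGTL4 differed by 0.68 ± 0.29 with overlapping groups, and its signal cannot be parted from that of near-identical gamma-glutamyltransferase genes. Another such gene is in this list, so the 5 are not all separate readings. By the brightest probe of each gene, GGTL4 was the member with an unadjusted p under 0.05.

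The remaining lists held single values or values near 0. IRS2, an adaptor of insulin and IGF receptors, stood at 0.19, 0.21 and 0.77 in vehicle and at 1.16, 0.86 and 1.35 at 30 ng/kg. The groups were apart and the difference was 0.73 ± 0.30, and was 0.24 within the shared slide. The stress response genes IER2, DNAJA1 and HSPA1A were at 0.22 ± 0.46, 0.08 ± 0.22 and -0.10 ± 0.31. The retinoid carriers RBP4 and CRABP2 were at 0.23 ± 0.64 and 0.02 ± 1.24.

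The 300 ng/kg arrays place these genes against the higher dose. Both differences from vehicle use the same 3 vehicle arrays, so they are given side by side and only the difference between doses is tested. No probe passed an adjusted p of 0.05 between 300 and 30 ng/kg (0.0%), and 3130 had an unadjusted p under 0.05 (20.6%). The smallest adjusted p, 0.104 by limma, belonged to IRX4. Its probe passed the filter for testing only through the 300 ng/kg arrays, where it was high. Its place in this contrast is therefore tied to that filter. All 3 arrays of 30 ng/kg were at the floor for that probe, and all 3 of 300 ng/kg were well above background. Its level at 300 ng/kg was at least 4.53-fold higher than at 30 ng/kg. Brightness moved with dose as well. The 75th percentile ran from 1258 to 2374 intensity units at 300 ng/kg, beside 343 to 1356 at 30 ng/kg. Spots well above background made up 79.3% to 83.9%, beside 63.9% to 79.0%. The part of this in the differences between doses was not tested.

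For several leading genes the mean at 300 ng/kg lay closer to the vehicle mean than the mean at 30 ng/kg did. These genes were chosen by their p at 30 ng/kg, and the contrast between doses uses the same 30 ng/kg arrays. The choice itself therefore favours such a pattern, and no conclusion on dose is drawn from it. COL22A1 was at 2.37 and 0.21, a difference between doses of -2.16 ± 0.55 (adjusted p = 0.160). PECAM1 was at 1.31 and 0.00, with -1.31 ± 0.29 between doses (adjusted p = 0.160). CNKSR1 was at 1.20 and 0.03, with -1.17 ± 0.25 between doses, again with an adjusted p of 0.160.

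Other genes had differences of like size at both doses. LPL was at 1.52 and 1.24, ALCAM at 1.40 and 1.46, PYGL at 1.24 and 1.33, and RELB at -1.02 and -0.97. The doses differed by -0.29 ± 0.29 for LPL (adjusted p = 0.576), by 0.06 ± 0.33 for ALCAM (adjusted p = 0.929) and by 0.04 ± 0.26 for RELB (adjusted p = 0.931), which does not show that they are equal. UBD was at 1.56 and 2.42, and the doses differed by 0.86 ± 0.34 (adjusted p = 0.211).

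The secretory genes and some others lay far apart between the doses. TGM4 was at 1.04 and 8.87, and the doses differed by 7.83 ± 1.44 (adjusted p = 0.160). Its levels on the 300 ng/kg arrays were 6.81, 1.42 and 7.41, with replicate 2 far below the others. KLK3 and MSMB stood above vehicle at 30 ng/kg and below it at 300 ng/kg, with -2.44 (unsaturated KLK3 probe) and -1.51 ± 0.36 between doses. HLA-B was at -1.46 and 2.66, and differed by 4.12 ± 0.61 between doses (adjusted p = 0.160). COL1A1 was at 0.34 and 1.54. CRABP2 was at 0.02 and 4.31, with replicate 2 of 300 ng/kg at -3.47 and the other 2 arrays at 2.16 and 1.52. All 3 arrays of 300 ng/kg were on 1 slide with replicate 3 of 30 ng/kg. With slide as a fixed block, which rests on that replicate, the doses differed by -1.87 for COL22A1, -1.56 for PECAM1, 8.83 for TGM4 and 3.04 for HLA-B.

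**Figure D4:**
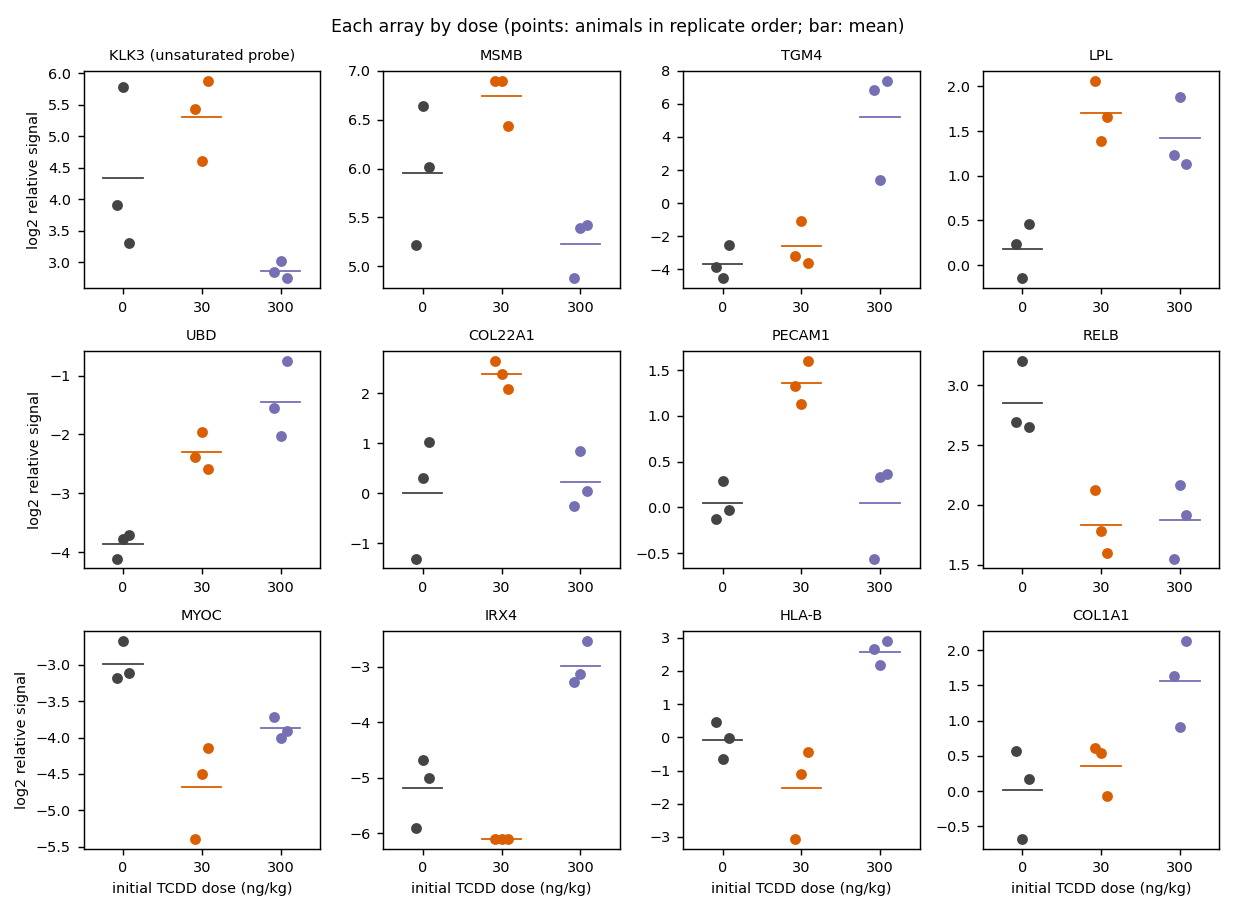
Log2 signal relative to the array's 75th percentile (y axis, a separate range in each panel) of 12 genes on each array, by initial TCDD dose in ng/kg (x axis), with bars at group means (n = 3 per dose). COL22A1 and PECAM1 stand highest at 30 ng/kg, LPL and UBD stand above vehicle at both doses, and TGM4, HLA-B and IRX4 stand highest at 300 ng/kg.

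The authors' deposited table of fold changes lists 1502 probes, all with a deposited analysis of variance p of at most 0.05 over the 3 doses and a fold of at least 1.5 in at least 1 comparison. In the authors' deposited table, a subset of 619 probes reaches a 1.5-fold difference at 30 ng/kg, 463 up and 156 down, with a median fold of 1.81 up and 1.71 down. Of these 619 probes, 514 were tested here, 511 lay on the same side as in the table and 3 on the other. At an unadjusted p under 0.05 there were 336 of the 514, the groups were apart for 303 of them, and none passed the adjusted threshold. Of all tested probes the shares were 5.05% and 9.38%. The 514 were picked by their fold at this dose on these same arrays. That choice favours high counts and a shared side, so neither is evidence of an effect. For COL22A1 the authors' deposited table gives 5.17-fold up, for LPL 2.87-fold up and for MYOC 3.24-fold down. The table was made from the same arrays and is no second measurement.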

How the data were processed

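Prostate RNA of 9 rhesus monkeys was measured on 1-colour Agilent arrays with 2 spots per probe. Per the file headers, the authors' scanner files were made with Feature Extraction 9.5.1.1, and gProcessedSignal is the background-subtracted intensity. The authors' deposited fold-change table gives ratios (linear folds) against vehicle, an ANOVA p-value and raw mean log2 signals, which 1479 of its probes matched within 0.01 when recomputed here with a floor of 5 intensity units. Its 9 detection flag columns were not used.

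Spots were averaged per probe, divided by the array's 75th percentile, floored at the dimmest array's 5 units (-6.10 on the log2 scale) and log2 transformed. This floor was chosen once the values had been seen. All 9 arrays entered 1 limma fit (limma 3.58.1 in R 4.3.3) with group as the only term, 6 residual and 2.99 prior degrees of freedom, and Benjamini-Hochberg adjustment over the 15160 tested probes. The script was tested on simulated data. Intervals are 95%. With 3 arrays per group, their number limits the precision.

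Symbols came only from the authors' deposited table (1266 probes, 1231 symbols, of which 873 were found in a RefSeq table of the assembly T2T-MMU8v2.0), with UniGene and LOC identifiers counted as no symbol. The other 14030 tested probes have no symbol here. The brightest probe stood for a gene. Named were the 15 genes above and 15 below vehicle with the smallest p, up to 3 tested members per list by p, KLK3, MSMB and TGM4, and 2 probes above and 2 below without a symbol. Some genes that this rule selects are not reported here. The members and lists were chosen with earlier results of these data known.

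Same-numbered arrays of both groups deviated together from their group means (r = 0.13, 0.54 and 0.26). By the rule that every r exceeds 0.1 the numbers were used as pairs in 1 alternative fit, the replicate block. Deviations of arrays with unlike numbers were not compared, and the labels state no pairing. These values therefore do not show that the animals are matched. The main fit, with its SEs, intervals and p-values, uses no pairing. Alternatives covered background correction, scaling, filters, slide, pairing, array weights and leaving out each array.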

Additional observations from a re-analysis of the deposited data

How the results depend on the processing

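For 30 ng/kg against vehicle, 0 probes passed the adjusted threshold with normexp background correction, quantile or median scaling, other filters, the compared groups alone, slide as a random block, the shared slide alone, array weights and the replicate block, whose 923 probes at an unadjusted p under 0.05 changed no call. There were 6 such probes with slide as a fixed block and 0 to 1 with 1 array left out. The count at an unadjusted p under 0.05 (766) was 397 with normexp, 1552 with slide as a fixed block, 3149 with array weights and 410 to 1937 with 1 array left out. The 300 ng/kg against 30 ng/kg count (0) was 2 with slide as a fixed block. Normexp was run on median signals, with an offset of 50, because the files used here hold no mean signal. The causes of these shifts were not tested.

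Of 75 named genes and probes, 47 kept their side in every setting that gave them a value and none passed the adjusted threshold in one. The filter on all 9 arrays gave a value for 56 of the 75, and 6 of the 47 had none under it. Sides turned with slide as a fixed block or the shared slide alone for ALDH1A3 (-0.069), BMP1 (-0.80), CRABP2 (-0.64), FCER1A (-0.21), HSD11B2 (0.39), HSPA1A (0.64), IER2 (-0.016), LAMA5 (0.058), RBP4 (-0.092), SGCA (0.0078) and WNT5A (-0.047). With normexp they turned for ADCYAP1 (0.55), BMP1 (-0.13), CBLNL1 (0.58), COX11 (0.13), DNAJA1 (-0.10), FLJ14834 (0.35), IRX4 (0.57), KRT13 (0.70), S100A2 (0.66), SLC7A5 (9.4e-05), TMEM31 (0.63), VDR (0.55) and the probes CN802880 (0.54) and NM_198281 (0.085). With median scaling they turned for BMP1 (-0.014), CRABP2 (-0.073) and DNAJA1 (-0.012), and with quantile normalization for CRABP2 (-0.065) and LIPG (-0.070), while KLK3 went to 0.0. CRABP2 was at -0.0073 with slide as a random block and DNAJA1 at -0.011 with array weights. With 1 array left out, BMP1 ran from -0.25 to 0.52, COL1A1 from -0.0051 to 0.61, CRABP2 from -0.35 to 0.31, HSPA1A from -0.43 to 0.16, IER2 from -0.086 to 0.41, RBP4 from -0.19 to 0.62 and XBP1 from -0.070 to 0.38.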

Other observations

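Most tested probes carry only a sequence accession here. By the same rule of smallest p, 2 of them above vehicle and 2 below were singled out, with no gene name. The probe for CN805531 stood at -3.47, -3.72 and -3.39 in vehicle and at -0.44, -2.49 and -1.98 at 30 ng/kg, a log2 difference of 1.89 ± 0.47 (SE). The 30 ng/kg arrays spread more widely than the vehicle arrays, and all 3 lay above them. At 300 ng/kg it was at 0.01 relative to the same vehicle arrays. The probe for NM_030941 differed by 1.83 ± 0.45.

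The probe for NM_198281 stood at -3.04, -3.48 and -2.65 in vehicle and at -4.84, -4.57 and -4.70 at 30 ng/kg. Its difference was -1.64 ± 0.27, and at 300 ng/kg it was at -1.55. The probe for CN802880 differed by -1.005 ± 0.22. Of the 3 arrays at 30 ng/kg, 1 was well above background for each of these lower probes. The probe for CN802880 passed the filter for testing only through the vehicle arrays, so its lower side is tied to that filter. All 4 probes had an adjusted p of 0.946 by limma.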
